A study of Mus musculus with 36 samples.

Results

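The genes described here encode 9 enzymes that break down the aromatic amino acids tyrosine and tryptophan in the liver. They were chosen by name from these pathways, 4 for tyrosine (Tat, Hpd, Hgd and Fah) and 5 for tryptophan (Tdo2, Kmo, Kynu, Haao and Acmsd), out of 21889 genes in the deposited table. All 9 were in the table and all 9 passed the filter on low values, a mean FPKM of 1 or more in 1 or more ages, which 11149 genes passed. FPKM counts sequenced fragments per length of exon and per number of mapped reads, so levels can be compared between genes. Liver RNA of male C57BL/6 mice (C57BL/6J in the methods) was measured by paired-end RNA sequencing at 12 ages, with 3 mice at each age and 36 libraries in all. Livers came from gestational day 17.5 (GD17.5, named Day -2 in the labels), from Day 0 (just born, not yet suckled), from Day 1, from Days 3, 5, 10, 15 and 20 before weaning, and from Days 25, 30, 45 and 60 after it. Weaning was at 21 days of age. No animal carried an engineered allele or received a treatment, and only 1 strain and 1 sex were studied. The mice of an age were separate animals drawn from several litters.

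The liver is the main site at which tyrosine and tryptophan are degraded. Tyrosine aminotransferase (Tat) removes the amino group of tyrosine and limits the rate of the pathway. 4-Hydroxyphenylpyruvate dioxygenase (Hpd) then makes homogentisate, and homogentisate dioxygenase (Hgd) opens its ring. After a further step, fumarylacetoacetase (Fah) cuts the product into fumarate and acetoacetate. Tryptophan 2,3-dioxygenase (Tdo2) commits tryptophan to the kynurenine pathway. Kynurenine 3-monooxygenase (Kmo), kynureninase (Kynu) and 3-hydroxyanthranilate dioxygenase (Haao) lead to an unstable product that either closes to quinolinate, the precursor of NAD, or is decarboxylated by aminocarboxymuconate semialdehyde decarboxylase (Acmsd) and oxidised. Tat is a classical gene of the perinatal liver that glucocorticoids and glucagon induce, and Tdo2 is a classical adult liver gene.

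In these data the 9 mRNAs did not appear together. Expressed as the share of the Day 60 mean, Fah was already at 105% on Day 0, whereas Tdo2 was at 0.181% and Acmsd at 6.16%. The first age with a mean of at least 50% of the Day 60 mean was Day 0 for Fah, Day 5 for Hgd and Kmo, Day 10 for Hpd, Day 15 for Kynu and Haao, Day 20 for Tat, and Day 25 for Tdo2 and Acmsd. Kmo was at 52.3% on Day 5 and at 49.5% on Day 10, and stayed above 50% from Day 15 on. Each pathway therefore held an early and a late gene, and the enzyme that opens each pathway, Tat or Tdo2, was among the last to reach this level.

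**Figure D1:**
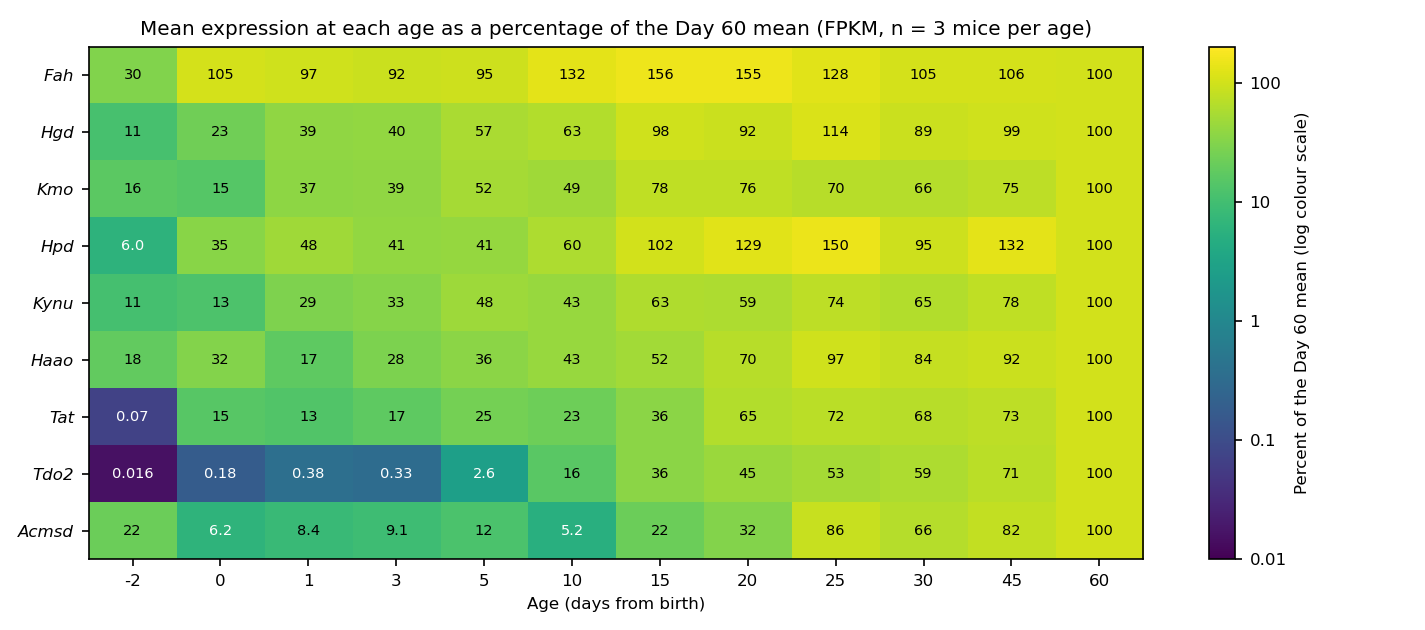
Mean FPKM of each gene at each age (horizontal axis, days from birth, with -2 for GD17.5) as a percentage of its mean at Day 60, with 3 mice per age, on a logarithmic colour scale. Rows are ordered by the first age at 50% of the Day 60 mean, from Fah, at 105% on Day 0, to Tdo2 and Acmsd, which were at 45.4% and 31.5% on Day 20.

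The DNA just upstream of the annotated start of transcription is shown for the earliest gene (Fah), for the entry enzymes (Tat and Tdo2), which came later, and for Haao, whose upstream bases hold a match to a searched motif. The sequences are the 120 bases before the start in RefSeq's annotation of GRCm38.p6, read 5′ to 3′ on the strand of the gene, and capitals mark a match to a searched motif.
Fah, chr7:84605943-84606062, minus strand: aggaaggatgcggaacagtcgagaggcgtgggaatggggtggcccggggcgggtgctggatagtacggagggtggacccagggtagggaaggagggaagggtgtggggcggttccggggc
Tat, chr8:109990316-109990435, plus strand: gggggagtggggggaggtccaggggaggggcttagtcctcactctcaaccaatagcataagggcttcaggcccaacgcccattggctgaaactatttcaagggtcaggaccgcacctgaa
Tdo2, chr3:81975729-81975848, minus strand: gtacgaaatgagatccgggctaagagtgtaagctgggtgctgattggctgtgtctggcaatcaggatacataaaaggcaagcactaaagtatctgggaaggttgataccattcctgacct
Haao, chr17:83846791-83846910, minus strand: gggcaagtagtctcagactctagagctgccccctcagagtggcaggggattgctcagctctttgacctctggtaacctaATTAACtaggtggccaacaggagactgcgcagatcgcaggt
In a window from 250 bases before to 50 bases after the start, 8 of the 9 genes had an entry, and Kynu had none. The letters searched on both strands were GTTAAT (one arm of an HNF1 site), CAAAGTCCA (HNF4), TGTTCT (one arm of a glucocorticoid receptor site), TGACGTCA (cyclic AMP response element), TTGCGCAA and TTGCNNAAT (C/EBP) and TTATGNAA (PAR bZIP factors). TTGCGCAA and TTGCNNAAT share their first 4 letters. Haao held ATTAAC, the reverse complement of GTTAAT, starting at position -41 counted from the start, and TGTTCT at position -164, outside the bases shown. Kmo held TGTTCT at position 15. No other of the 8 windows held any of these letters. GTTAAT was in 7.1% of 32851 RefSeq promoter windows of this length, TGTTCT in 19%, CAAAGTCCA in 0.475%, TGACGTCA in 1.79%, TTGCGCAA in 0.183%, TTGCNNAAT in 2.4% and TTATGNAA in 3.38%. A further search for TATAAA, added after the windows had been read, matched Tdo2 at position -229 and Hgd on the other strand at position -139, and 13.6% of all windows.

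The libraries looked like liver at every age: the 8 hepatocyte markers were above 0 in every mouse, the lowest value being 5.44 FPKM. Their summed level at GD17.5 averaged 17.9% of that at Day 60 and rose to 79.8% on Day 0, while the 8 erythroid genes took 37% of all summed FPKM in the fetal mice and 16.9% on Day 0. In whole liver, fewer hepatocytes and less mRNA per hepatocyte cannot be told apart. Genes of neighbouring tissues were high in 7 libraries, taken as those with a summed level over 100 FPKM for skeletal muscle, 50 FPKM for kidney or 2000 FPKM for exocrine pancreas. Skeletal muscle genes summed to 1269 FPKM in Day 0 replicate 1 and to at most 4.55 FPKM in the other Day 0 mice. Kidney genes summed to 82.5 FPKM in Day 1 replicate 2. Exocrine pancreas genes summed to 5645 FPKM in Day 0 replicate 3, 5468 in Day 15 replicate 3 and 8490 in Day 20 replicate 2. They summed to 5276 FPKM in Day 45 replicate 1 and to 23930 FPKM in Day 60 replicate 1, a mouse that enters every Day 60 mean. Macrophage markers averaged 172% of their Day 60 level at GD17.5 and 151% on Day 0, and neutrophil granule genes took 0.636% of all FPKM at the first of these ages and 0.913% at the second. Just under these limits, Day 10 replicate 1 held 85.2 FPKM of muscle genes (8.11 and 1.2 in the other Day 10 mice) and 1429 FPKM of pancreas genes. Most other libraries of Days 0 to 15 also held pancreas genes, from 554 to 1290 FPKM on Day 3, for example. They summed to at most 7.57 FPKM at GD17.5 and 8.89 FPKM on Day 25. Leaving out the 7 libraries therefore does not remove all such RNA. It also leaves a single mouse on Day 0. The part of these cells in the results below was not tested, except that calls lost without the 7 libraries are given here or in the closing section.

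**Figure D2:**
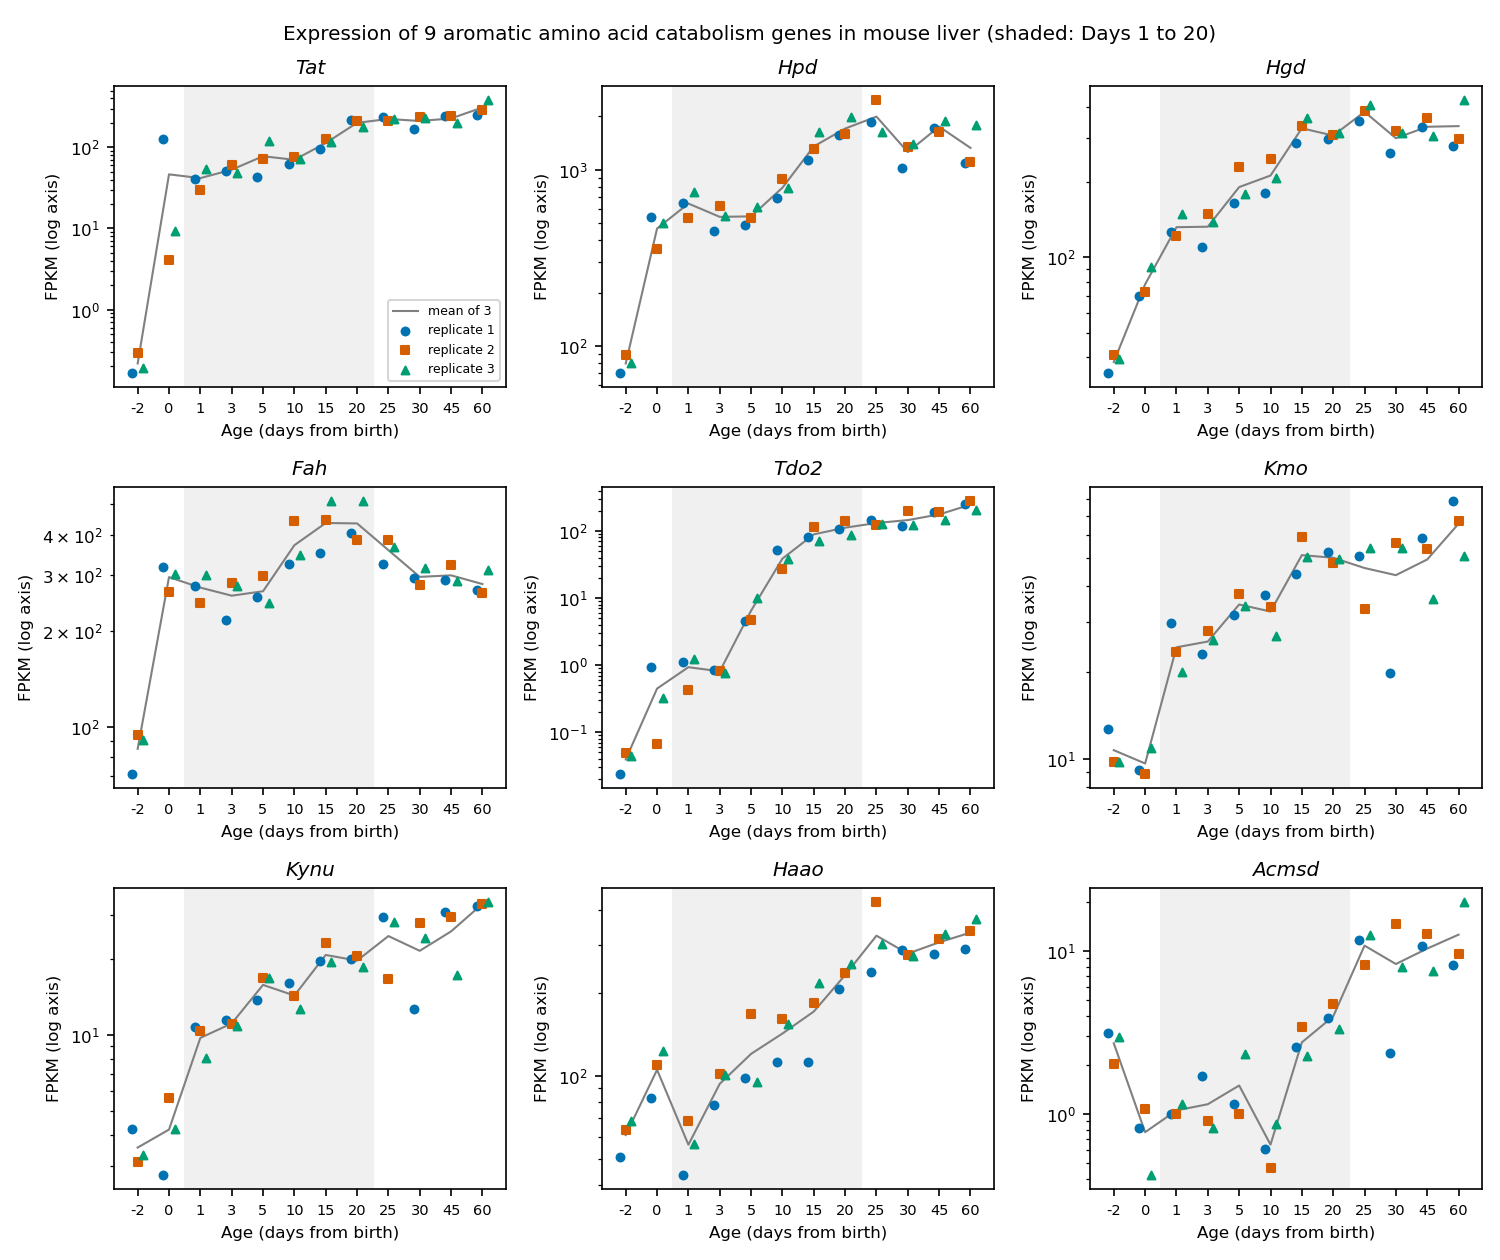
FPKM of each gene in every mouse (points, by replicate number) and the mean of the 3 mice (line) against age in days from birth, on logarithmic axes that differ between panels. Days 1 to 20 are shaded. The mice at GD17.5 sit below all mice at Day 60 for all 9 genes, and Day 0 replicate 1 stands far above the other Day 0 mice for Tat (126 FPKM against 4.11 and 9.21).

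All 9 genes were below their Day 60 level at GD17.5, and 8 of them, all but Fah, stayed below it through Day 10. Values here are differences in log2(FPKM + 1) from limma's moderated test fitted to all 11149 genes, with p-values adjusted over all of them (Benjamini-Hochberg) and a threshold of 0.05. At GD17.5, 9 of 9 were lower than at Day 60, where 18.6% of all genes tested were lower. On Day 0 the count was 8 (20.3% of all genes), on Day 1 it was 8 (11.7%), on Day 3 it was 8 (10.3%), on Day 5 it was 8 (8.50%) and on Day 10 it was 8 (10.6%). On Day 15 it was 4, namely Tdo2, Kynu, Haao and Acmsd (8.95% of all genes), on Day 20 it was 3, Tdo2, Kynu and Acmsd (6.99%), and on Day 25 it was Tdo2 alone (3.24%). On Day 30 and Day 45 limma called 0 genes lower (1.79% and 0.170% of all genes), 3 and 0 genes having an unadjusted p under 0.05, and Dunnett's comparison also called 0 at both ages. The Day 15 count depended on single mice. Without Day 0 replicate 1, whose high Tat widened the spread fitted for that gene, it was 5, with Tat added (-1.43, limma, adjusted p = 0.0652 with that mouse and 8.7e-05 without it). Kynu dropped out of it without Day 15 replicate 1 or 3 or any 1 of the Day 60 mice. Dunnett's comparison called 3 lower on Day 15, without Kynu, and did not call Fah above Day 60 on Day 10. It called Hpd higher on Day 25, which limma did not (0.61, adjusted p = 0.0619). Across the ages together, 9 of 9 differed from Day 60 at some age, as did 90.7% of all genes tested.

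The median of all genes tested was 0.56 higher at GD17.5 than at Day 60 on this log2 scale, so the 9 genes lay on the other side of 0 from the typical gene. When the libraries were scaled to an equal upper quartile that median was 0.15, and the higher genes fell from 75.2% to 58.4% of the calls. The number of the 9 genes lower at GD17.5 was 9 under both scalings.

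Tat was close to silent before birth. It measured 0.164, 0.295 and 0.192 FPKM in the mice at GD17.5, then 126, 4.11 and 9.21 FPKM on Day 0, and 40.8, 29.9 and 54.3 FPKM on Day 1. The mice of GD17.5 and Day 0 did not overlap, but the Day 0 mice differed from each other more than at any other age, with an SD of 2.44 on the log2 scale against a median of 0.181 over the ages. The highest of them is the mouse with skeletal muscle genes. Tat rose by 3.95 ± 0.58 (SE) on the log2(FPKM + 1) scale from GD17.5 to Day 0 (limma, adjusted p = 2.58e-06), and by 2.57 without Day 0 replicate 1 (adjusted p = 5.99e-08). The step from Day 0 to Day 1 was 1.15 ± 0.58 (limma, adjusted p = 0.128) with that mouse and 2.52 without it (adjusted p = 1.55e-07).

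After Day 1 Tat rose further by Day 60 (limma, adjusted p = 8.07e-05 for Day 1 against Day 60). The mice measured 62.6, 75.7 and 71.8 FPKM on Day 10, 215, 210 and 175 FPKM on Day 20, and 251, 290 and 386 FPKM on Day 60. Every mouse of Day 60 was above every mouse of Day 20, and no step after Day 1 was called by limma, with or without Day 0 replicate 1. The mice did not overlap at the steps from Day 10 to Day 15 (0.67, adjusted p = 0.571, and 0.0858 without that mouse) and from Day 15 to Day 20 (0.83, adjusted p = 0.798 and 0.112). The SE of every Tat step was 0.58 with that mouse in the fit, because all ages share an estimate of the spread. On the log2 scale the SDs were 0.139, 0.193 and 0.161 on Days 10, 15 and 20, so this SE does not describe the mice of those days. The Day 60 mean of 309 ± 69.0 FPKM (SD, n = 3) was 1426 times the GD17.5 mean of 0.217 ± 0.0690 FPKM.

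Hpd was the most abundant of the 9 mRNAs at every age from Day 0. It measured 70.1, 88.8 and 80.3 FPKM at GD17.5 and 537, 357 and 497 FPKM on Day 0, with no overlap between the ages. The rise was 2.51 ± 0.20 (SE) in log2(FPKM + 1) (limma, adjusted p = 4.55e-11). It then stayed near this level to Day 5, at 484, 531 and 614 FPKM, and reached 1130, 1303 and 1622 FPKM on Day 15. Its rises from Day 5 to Day 10 (0.54, adjusted p = 0.0355) and from Day 10 to Day 15 (0.77, adjusted p = 0.00975), both by limma, lost significance when single mice were left out. These were Day 5 replicate 1 or 2 and Day 10 replicate 2 or 3 for the first rise, and Day 10 replicate 1 (0.68, adjusted p = 0.0539) or Day 15 replicate 3 for the second. On Day 25 the mice measured 1866, 2487 and 1630 FPKM, and on Day 60 they measured 1090, 1098 and 1789 FPKM, a range that overlapped that of Day 25. The Day 10 level was called lower than that of Day 60 (-0.71, limma, adjusted p = 0.00413) but not without Day 60 replicate 3 (-0.48, adjusted p = 0.0593).

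Hgd climbed in smaller steps. It measured 34.3, 40.8 and 39.3 FPKM at GD17.5, 70.0, 72.8 and 91.3 FPKM on Day 0, and 126, 122 and 149 FPKM on Day 1, and the mice of these ages did not overlap. Both steps were called by limma, at 1.01 ± 0.16 (SE; adjusted p = 7.05e-06) and 0.76 ± 0.16 (adjusted p = 0.000689). A further rise came between Day 10, at 181, 249 and 208 FPKM, and Day 15, at 288, 335 and 363 FPKM (0.63 ± 0.16, limma, adjusted p = 0.00722). This call was lost without Day 10 replicate 1 (adjusted p = 0.0568) or Day 15 replicate 3 (adjusted p = 0.0504). From Day 15 on the age means lay between 300.2 and 383 FPKM.

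Fah, the last enzyme of tyrosine breakdown, was the first of the 9 to reach its adult level. It measured 70.8, 93.8 and 90.9 FPKM at GD17.5 and 318, 265 and 301 FPKM on Day 0, a rise of 1.79 ± 0.15 (SE) in log2(FPKM + 1) (limma, adjusted p = 1.45e-10). The Day 0 mice overlapped those of Day 60, at 268, 264 and 310 FPKM, and the difference was 0.07 ± 0.15 (adjusted p = 0.692). Fah then passed its adult level. The mice measured 350, 445 and 512 FPKM on Day 15 and 406, 386 and 511 FPKM on Day 20, all above those of Day 60. The differences from Day 60 were 0.62 on both days (limma, adjusted p = 0.00228 and 0.0035), and the one on Day 15 was lost without the 7 libraries with genes of other tissues (0.47, adjusted p = 0.0867). The difference of 0.39 on Day 10 (adjusted p = 0.0323) was lost without Day 10 replicate 2, Day 60 replicate 1 or Day 60 replicate 2 and with upper-quartile scaling. The rise from Day 5 to Day 10 (0.47, limma, adjusted p = 0.0155) was lost without Day 5 replicate 3 or Day 10 replicate 2.

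Tdo2, the entry enzyme of the tryptophan pathway, covered the widest range of the 9. It measured 0.0235, 0.0498 and 0.0445 FPKM at GD17.5, which may correspond to only 6.65 to 15.0 fragments per library, and 256, 283 and 202 FPKM on Day 60. The ratio of the means was 6292. On Day 0 the mice measured 0.952, 0.0667 and 0.323 FPKM, and on Day 3 they measured 0.850, 0.824 and 0.751 FPKM. On the log2(FPKM + 1) scale the first 2 steps were 0.43 (limma, adjusted p = 0.173) and 0.44 (adjusted p = 0.211), a scale that compresses differences among values under 1 FPKM. With a pseudocount of 0.1 the steps were 1.60 (adjusted p = 0.00245) and 1.19 (adjusted p = 0.0333).

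The main rise of Tdo2 fell between Day 3 and Day 15. The mice measured 4.62, 4.66 and 10.2 FPKM on Day 5, 51.7, 26.8 and 37.6 FPKM on Day 10, and 81.9, 115 and 69.8 FPKM on Day 15, with no overlap between successive ages. The steps were 1.97 ± 0.27 (SE; limma, adjusted p = 3.86e-05), 2.44 ± 0.27 (adjusted p = 4.88e-08) and 1.2 ± 0.27 (adjusted p = 0.00259, and 0.0508 with a pseudocount of 0.1). Tdo2 was the only one of the 9 with a called change from Day 3 to Day 5. On Day 25 it still measured 146, 124 and 125 FPKM, below every Day 60 mouse, and the difference of -0.89 was called (limma, adjusted p = 0.0364). That call was lost without Day 25 replicate 1, 2 or 3 or Day 60 replicate 1 or 2, with adjusted p between 0.0517 and 0.175.

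Kmo and Kynu, which act one after the other, rose at the same step. Kmo measured 9.16, 8.82 and 10.9 FPKM on Day 0 and 29.6, 23.5 and 20.1 FPKM on Day 1, and Kynu measured 2.76, 5.61 and 4.24 FPKM and then 10.8, 10.3 and 8.07 FPKM. Neither gene overlapped between these days. The rises were 1.25 ± 0.26 (SE, limma, adjusted p = 0.000659) for Kmo and 1.07 ± 0.23 (adjusted p = 0.000943) for Kynu. That of Kynu was 0.64 without the 7 libraries with genes of other tissues, a fit with a single Day 0 mouse. From GD17.5 to Day 0 neither change was called, at -0.14 (adjusted p = 0.686) and 0.16 (adjusted p = 0.584).

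Both genes then climbed with no single called step. On Day 15 Kmo measured 44.0, 59.2 and 50.3 FPKM and Kynu measured 19.7, 23.1 and 19.6 FPKM. On Day 60 they measured 79.1, 67.4 and 50.8 FPKM and 32.6, 33.1 and 33.8 FPKM. Kmo overlapped between these ages and Kynu did not. The difference of Kynu from Day 60 was -0.65 on Day 15 (limma, adjusted p = 0.0356) and -0.72 on Day 20 (adjusted p = 0.0309). The Day 15 call was lost without Day 15 replicate 1 or 3 or any 1 of the Day 60 mice, and the Day 20 call without any 1 of the Day 20 or Day 60 mice, while the differences stayed between -0.61 and -0.75.

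Between Day 25 and Day 45, single mice had low values of both genes. Day 30 replicate 1 measured 19.9 FPKM of Kmo, against 56.5 and 54.2, and 12.6 FPKM of Kynu, against 27.7 and 24.4. Day 25 replicate 2 measured 33.2 FPKM of Kmo and 16.6 FPKM of Kynu, and Day 45 replicate 3 measured 35.9 and 17.2 FPKM, each the lowest of its age. The ratio of Kmo to Kynu lay between 1.5 and 3.31 in all 36 mice and was 1.58 in Day 30 replicate 1. Of the 8 hepatocyte markers, Hnf4a, Cps1 and Apob were lowest of their age in the same mice. Hnf4a measured 30.5 FPKM in Day 30 replicate 1 (80.4 and 84.6 in the others), 45.5 in Day 25 replicate 2 (85.5 and 79.9) and 53.9 in Day 45 replicate 3 (84.6 and 84.0). Cps1 measured 104 FPKM (367 and 336), 170 FPKM (588 and 579) and 148 FPKM (420 and 495) in these mice. Apoa1, Apoa2 and Ttr were highest of their age in all 3, with Apoa1 at 15150 FPKM and Apoa2 at 13120 FPKM in Day 30 replicate 1. Alb and Serpina1c were neither highest nor lowest in all 3. These libraries therefore stand apart beyond Kmo and Kynu, and what sets them apart was not tested. Acmsd was also lowest of its age in all 3, at 8.13, 2.37 and 7.525 FPKM on Days 25, 30 and 45. So were Tat (212, 169 and 197 FPKM) and Tdo2 (124, 119 and 146 FPKM). For Tdo2 the next mice were close, at 125 FPKM on Day 25 and 121 FPKM on Day 30. Haao went the other way and was highest of its age in all 3, at 430, 286 and 327 FPKM. Hpd, Hgd and Fah were neither lowest nor highest in all 3. Over 12 ages and 36 pairs of genes, the order of the 3 mice matched in a median of 3 ages, and at most in 7.

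Haao was the most abundant of the 5 tryptophan mRNAs at every age. It measured 50.7, 63.7 and 68.3 FPKM at GD17.5, 82.8, 109 and 123 FPKM on Day 0, and 43.5, 68.8 and 56.3 FPKM on Day 1. The Day 0 mice were above all mice of the days on either side. The rise was 0.77 ± 0.23 (SE, limma, adjusted p = 0.0074) and the fall was -0.90 ± 0.23 (adjusted p = 0.00498). Haao was the only one of the 9 with a called fall between Day 0 and Day 1. The highest Day 1 value belonged to the mouse with kidney genes, and the fall was called without it as well. The rise was 0.84 without the 7 libraries with genes of other tissues, a fit with a single Day 0 mouse.

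Haao then regained its Day 0 level over several days. The mice measured 78.4, 101 and 101 FPKM on Day 3, a rise of 0.74 from Day 1 (limma, adjusted p = 0.0383) that was lost without Day 1 replicate 1 or 3 or Day 3 replicate 2 or 3, and with upper-quartile scaling (0.60, adjusted p = 0.147). They measured 112, 184 and 218 FPKM on Day 15, 207, 236 and 255 FPKM on Day 20, and 289, 335 and 371 FPKM on Day 60. All mice of Day 15 and Day 20 were below those of Day 60, and the call against Day 60 was met on Day 15 (-1.0, adjusted p = 0.00182) but not on Day 20 (-0.51, adjusted p = 0.156). No step of Haao after Day 3 was called.

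Acmsd, the enzyme that draws the pathway away from NAD, was lower in the newborn than in the fetal mice. It measured 3.15, 2.02 and 2.96 FPKM at GD17.5 and 0.820, 1.08 and 0.420 FPKM on Day 0, without overlap. The fall was -1.07 ± 0.34 (SE; limma, adjusted p = 0.0106). It was -0.92 without Day 0 replicate 3 (adjusted p = 0.0521) and -0.82 without the 7 libraries, a fit with a single Day 0 mouse. Acmsd was the only one of the 9 with a called fall at this step, and its lowest mean, 0.649 ± 0.207 FPKM (SD, n = 3), came on Day 10.

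Acmsd rose again between Day 10 and Day 25. The mice measured 0.611, 0.464 and 0.873 FPKM on Day 10, 2.57, 3.40 and 2.26 FPKM on Day 15, 3.85, 4.72 and 3.31 FPKM on Day 20, and 11.6, 8.13 and 12.5 FPKM on Day 25. The first and the last of these steps were called, at 1.18 ± 0.34 (SE; limma, adjusted p = 0.0216) and 1.23 ± 0.34 (adjusted p = 0.0237), and the groups did not overlap at either. Each call rested on single mice. The first was lost without Day 10 replicate 1 (adjusted p = 0.0582), Day 10 replicate 2 or Day 15 replicate 2, and the second without Day 20 replicate 1 or 3 or Day 25 replicate 1 or 3, with changes between 1.06 and 1.22 in these fits. On Day 60 the mice spread from 8.13 to 20.0 FPKM, and Day 20 was called lower than Day 60 (-1.36, adjusted p = 0.00551) but not without Day 60 replicate 3 (-0.99, adjusted p = 0.0654).

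**Figure D3:**
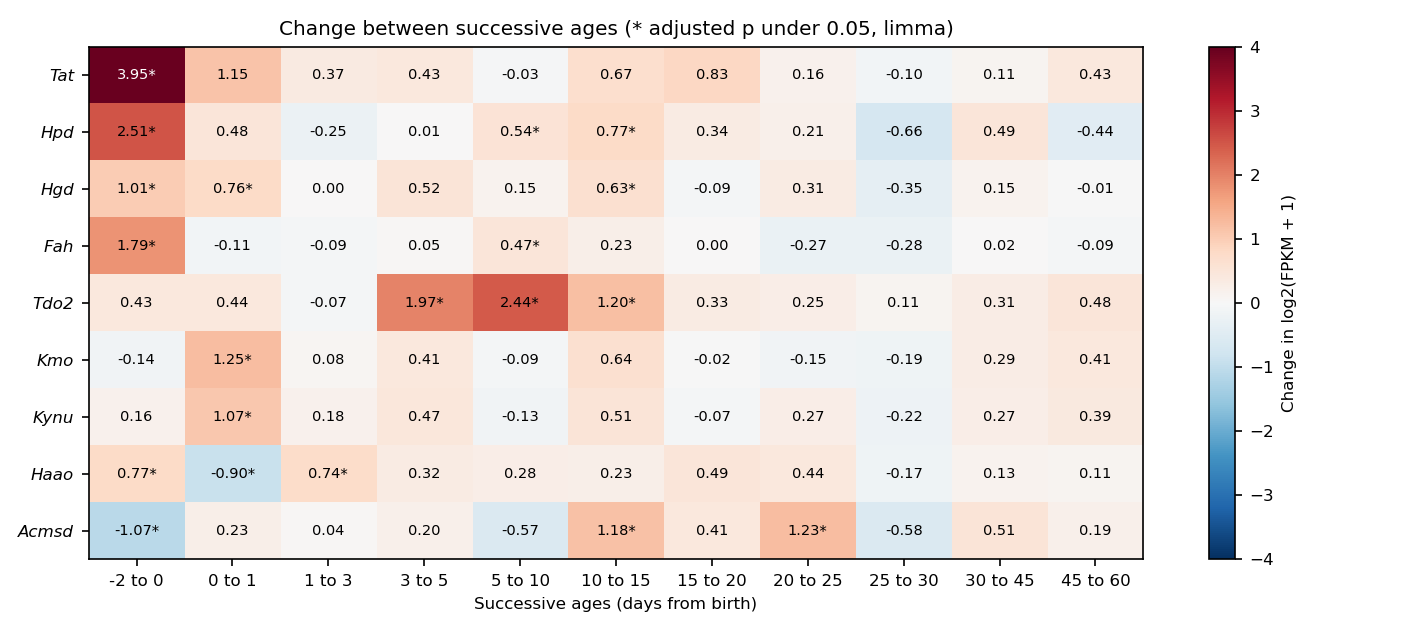
Change in log2(FPKM + 1) of each gene between successive ages (days from birth, -2 for GD17.5), from limma, with 3 mice per age. Asterisks mark an adjusted p under 0.05. The 4 tyrosine genes rose between GD17.5 and Day 0 while Acmsd fell (-1.07), Tdo2 rose from Day 3 to Day 15, and no gene has an asterisk from Day 25 on.

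Over the 11 steps and 9 genes, 20 of 99 changes were called. From GD17.5 to Day 0 there were 6 (54.6% of all genes changed), the 4 tyrosine genes and Haao rising and Acmsd falling. From Day 0 to Day 1 there were 4 (31.6% of all genes), with Hgd, Kmo and Kynu rising and Haao falling. The counts were 1 for Day 1 to 3 (11.3%), 1 for Day 3 to 5 (3.20%), 3 for Day 5 to 10 (36.3%) and 4 for Day 10 to 15 (12.0%). From Day 15 to 20 limma called 0 (1.99% of all genes; 1 had an unadjusted p under 0.05), and from Day 20 to 25, the interval that holds weaning, it called 1, Acmsd (7.19%). The 3 later steps gave 0 calls each (1.64%, 1.03% and 0.233% of all genes), with 2, 1 and 1 genes at an unadjusted p under 0.05. The median over all genes of the step from GD17.5 to Day 0 was -0.29, and -0.08 with upper-quartile scaling, which raised the share of rises among the calls from 24.1% to 43.5%. The 9 genes gave 5 rises and 1 fall under both. Fewer of the 99 changes were called without the 7 libraries with genes of other tissues, a fit with a single Day 0 mouse.

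Set against the period before the first milk, the suckling period (Days 1 to 20) had more of 8 of the 9 mRNAs. The differences in log2(FPKM + 1) from the mean of GD17.5 and Day 0 were 4.06 ± 0.33 (SE) for Tat and 3.58 ± 0.15 for Tdo2 at the upper end and 0.61 ± 0.14 for Haao at the lower end (limma, adjusted p = 9.18e-12, 3.62e-18 and 0.000247). Hpd (2.12), Hgd (1.88), Kynu (1.71), Kmo (1.69) and Fah (1.05) lay between them. Of all genes tested, 27% were higher and 40.7% were lower. For Acmsd the difference was 0.04 with a 95% interval from -0.37 to 0.45 (adjusted p = 0.865), so that the direction was not settled. The count of the 9 called lower was 0 by limma and also 0 at an unadjusted p under 0.05. The median of all genes was -0.10, and 0.0026 with upper-quartile scaling. Days 1 and 20 lie far apart for several of these genes, and the period means average over that course.

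Set against Days 25 to 60, the suckling period had a lower mean for 8 of the 9. That mean spans the course from Day 1 to Day 20, and mice of both periods overlapped for every gene. The differences were -3.55 ± 0.12 (SE) for Tdo2, -2.02 ± 0.16 for Acmsd, -1.58 ± 0.26 for Tat and -1.33 ± 0.11 for Haao (limma, adjusted p = 1.21e-20, 1.72e-12, 4.02e-06 and 4.22e-12). Hpd (-0.88), Kynu (-0.75), Hgd (-0.72) and Kmo (-0.47) differed less. Of all genes tested, 11.7% were lower and 68.1% were higher, and 0 of the 9 were higher, by adjusted or by unadjusted p. The median of all genes was 0.39, and 0.13 with upper-quartile scaling, which lowered the share of higher genes among the calls from 85.4% to 63.7%. Fah was at 0.10 ± 0.07 (adjusted p = 0.169) and turned to -0.31 with upper-quartile scaling (adjusted p = 0.00074), and that scaling also moved Hgd to -1.13, Kynu to -1.14 and Kmo to -0.88.

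**Figure D4:**
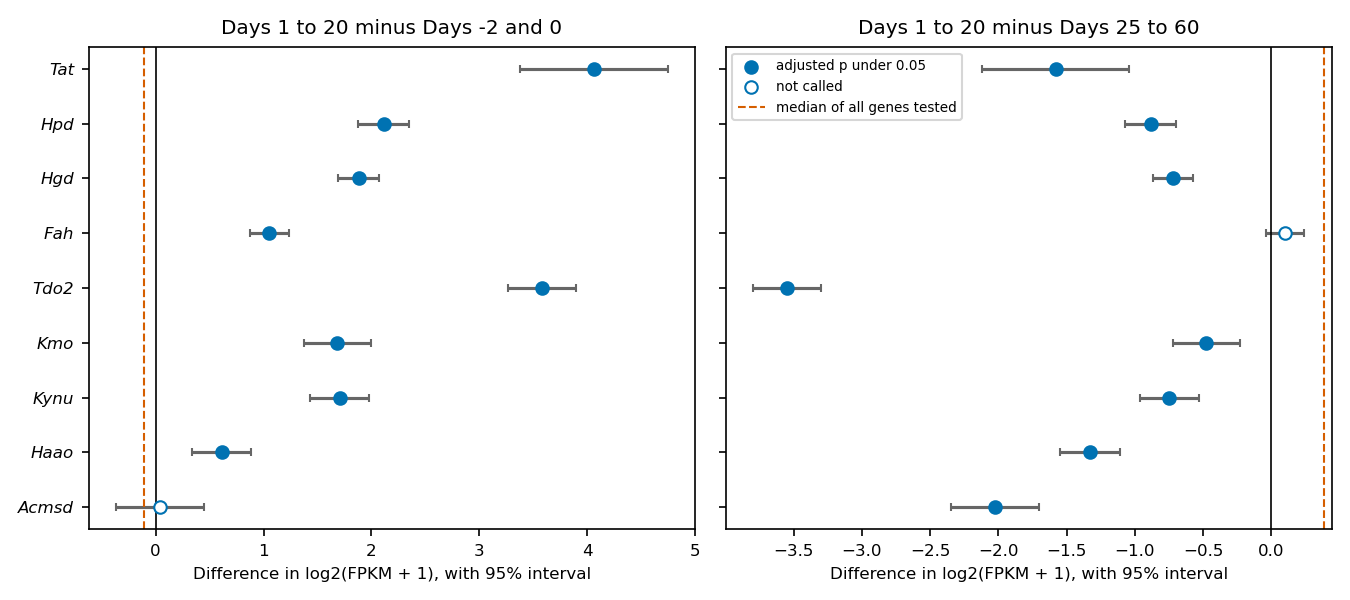
Difference in log2(FPKM + 1) between Days 1 to 20 and the ages before suckling (left) or after weaning (right), with 95% intervals from limma. Filled points passed an adjusted p of 0.05, and the dashed line is the median of all 11149 genes tested (-0.10 on the left, 0.39 on the right). All points but Acmsd are filled on the left and all but Fah on the right.

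The tyrosine genes summed to 203 ± 25.0 FPKM (SD, n = 3) at GD17.5, 1089 ± 161 FPKM on Day 1, 2958 ± 451 FPKM on Day 25 and 2250 ± 574 FPKM on Day 60. The tryptophan genes summed to 77.9 ± 6.80, 92.3 ± 10.2, 536 ± 68.7 and 690 ± 33.4 FPKM. The ratio of the sums was 2.61 ± 0.21 at GD17.5, 12.0 ± 2.81 on Day 1 and 3.27 ± 0.89 on Day 60, and the mice of Day 1 were above those of both other ages. Hpd made up 39.3% of the tyrosine sum at GD17.5 and 67.0% on Day 25, and Haao made up 77.9% of the tryptophan sum at GD17.5 and 48.1% on Day 60.

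Ratios between genes of a pathway also changed with age. In FPKM, Haao exceeded Tdo2 by 1658 ± 452 times (SD, n = 3) at GD17.5, 81.0 ± 67.6 times on Day 1 and 1.38 ± 0.39 times on Day 60. Hpd exceeded Tat by 383 ± 70.5 times at GD17.5, 15.8 ± 1.97 times on Day 1 and 4.25 ± 0.43 times on Day 60, and by only 4.27 times in Day 0 replicate 1. At the branch of the tryptophan pathway, Haao exceeded Acmsd by 23.6 ± 7.76 times at GD17.5, 236 ± 96.0 times on Day 10 and 29.7 ± 9.68 times on Day 60. The Day 10 mice, from 176 to 347 times, were above all mice of GD17.5 and Day 60, whose ranges overlapped. At Day 60 the order of the means in FPKM was Hpd, Hgd, Haao, Tat, Fah, Tdo2, Kmo, Kynu and Acmsd, and neighbours from Hgd to Tdo2 overlapped between mice. At GD17.5 it was Fah, Hpd, Haao, Hgd, Kmo, Kynu, Acmsd, Tat and Tdo2, and the overlapping neighbours were Fah with Hpd and Kynu with Acmsd.

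**Figure D5:**
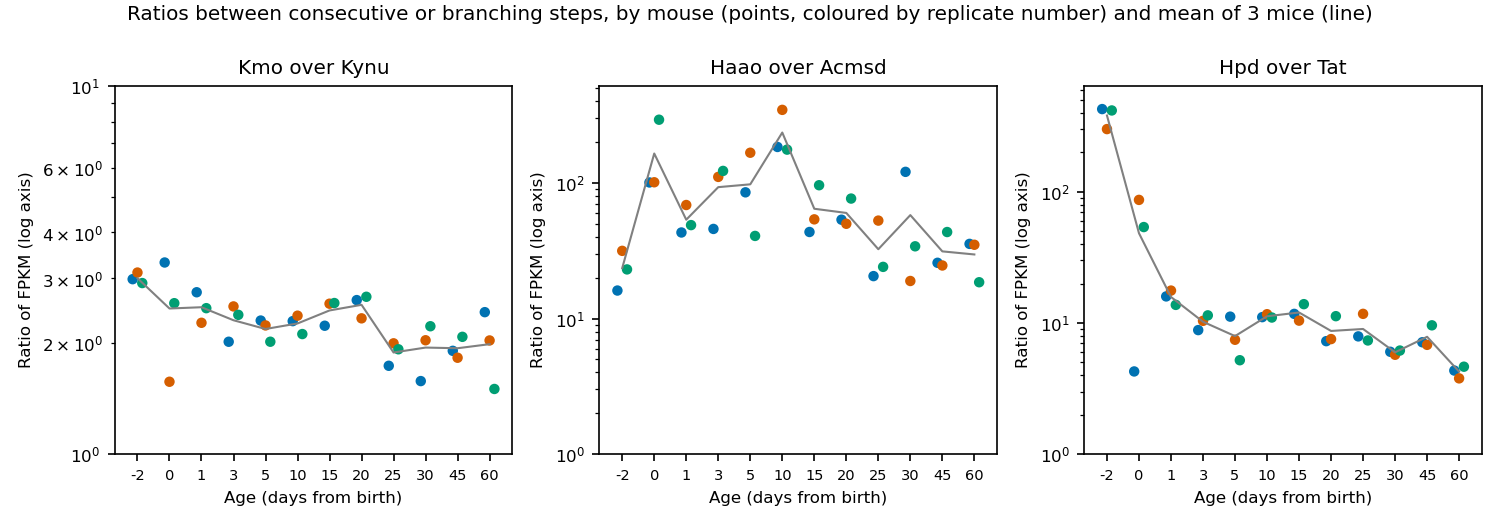
Ratio of FPKM between pairs of genes in every mouse (points, coloured by replicate number) and the mean of 3 mice (line) against age in days from birth, on logarithmic axes. Kmo over Kynu stays between 1.5 and 3.31, Haao over Acmsd peaks at a mean of 236 on Day 10, and Hpd over Tat falls from a mean of 383 at GD17.5 to 4.25 on Day 60.

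Other genes of these pathways were listed by function: tyrosine supply, other breakdown steps and side reactions, then further steps of tryptophan use, and transporters. Of 47 listed genes, 44 were in the table and 38 passed the filter. Between the suckling period and Days 25 to 60, 20 of the 38 were lower and 12 were higher, against 11.7% and 68.1% of all genes tested, and their median difference was -0.18 against 0.39 for all genes. By list, 8 of 13 tested tyrosine genes and 11 of 18 tryptophan genes were lower, with 2 and 5 higher, and of 7 transporters 1 was lower and 5 were higher.

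The largest differences among them, from limma in log2(FPKM + 1), were those of Inmt, an indolethylamine N-methyltransferase that methylates tryptamine (-3.58, adjusted p = 4.64e-22), and Ido2, a second enzyme able to open the indole ring of tryptophan (-2.52, adjusted p = 1.81e-19). Inmt averaged 0.738 FPKM over GD17.5 and Day 0, 180 FPKM over Days 1 to 20 and 875 FPKM over Days 25 to 60. The aldehyde oxidases Aox1 (-1.98) and Aox3 (-1.46), the aromatic amino acid decarboxylase Ddc (-1.81) and Qdpr, which regenerates the tetrahydrobiopterin cofactor of the aromatic amino acid hydroxylases (-1.45), were lower as well. The amino acid transporters Slc43a1 (2.27, adjusted p = 1.07e-19) and Slc7a5 (2.04, adjusted p = 1.01e-19) were higher. Slc7a5 averaged 37.4 FPKM over GD17.5 and Day 0, 8.70 FPKM over Days 1 to 20 and 0.720 FPKM over Days 25 to 60.

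The closest patterns to each gene were sought among the 4779 genes whose mean reached 10 FPKM at some age, less the 9 themselves. The measure was Pearson's r of log2(FPKM + 1) over the 36 mice. These values are descriptions, since the mice of an age share its age and the libraries share their composition. Tat was most like Hspb8 (0.959) and Gch1 (0.949), Hpd like Ndrg2 (0.972) and Serpina1d (0.969), Hgd like Gcdh (0.981) and Aldh1l1 (0.970), and Fah like Mst1 (0.970) and Vtn (0.933). Tdo2 was most like Ces1b (0.984, a carboxylesterase) and Igf1 (0.979, insulin-like growth factor 1). Kmo was most like C2cd2 (0.974) and Aldh8a1 (0.949, an enzyme of the kynurenine pathway beyond Acmsd), Kynu like Lonp2 (0.976) and C2cd2 (0.972), Haao like Lsr (0.970) and Gsta3 (0.961), and Acmsd like Oat (0.931, ornithine aminotransferase) and Gpt2 (0.926, an alanine aminotransferase). Among the 9 themselves the highest value was that of Kmo with Kynu (0.969), and the gene nearest to Acmsd was Tdo2 (0.731).

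In the mm9 build the genes lie on 8 chromosomes. Tat is at chr8:112514337-112523703 on the plus strand, Hpd at chr5:123621816-123632734 on the minus strand, Hgd at chr16:37580239-37632106 on the plus strand and Fah at chr7:91733669-91755232 on the minus strand. Tdo2 is at chr3:81761012-81780124 on the minus strand, Kmo at chr1:177550512-177592247 on the plus strand, Kynu at chr2:43410849-43538235 on the plus strand, Haao at chr17:84230696-84246130 on the minus strand and Acmsd at chr1:129625990-129664141 on the plus strand. Each value is for the gene as a whole. The span of Hpd overlaps Gm17627 and that of Kmo overlaps Fh1, with no exon base shared in either case.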

How the data were processed

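RNA from 36 male livers (RNA integrity above 7) was sequenced as 100-base paired ends. Per the labels and the methods, the authors aligned reads to NCBI37/mm9 with TopHat 1.2.0 and estimated abundances with Cufflinks 1.0.3. The deposited values are FPKM per gene, in 1 table of 21889 genes. How isoforms were combined is not given in the sources used here. Cufflinks divides by the total mapped, so an abundant class of mRNA lowers all others.

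No read counts are used. Low values of 946 genes came within 0.1 of whole fragments in 67.9% of cases, giving relative depths of 0.886 to 1.14 and about 82700000 fragments per library, an estimate only. Replicates correlated at r between 0.952 and 0.997 across genes.

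Groups came from the sample titles. Genes whose mean reached 1 FPKM at some age (11149) were tested on log2(FPKM + 1), with 1 mean per age and limma 3.58.1 (R 4.3.3, trend in the prior variance), Benjamini-Hochberg adjusted within each comparison. Successive ages, each age against Day 60, and the suckling period against the ages before and after it were compared, and these comparisons share mice. The script was tested on simulated data. The 9 genes, the other lists, the marker lists (hepatocyte, erythroid, macrophage, neutrophil granule, skeletal muscle, exocrine pancreas and kidney proximal tubule) and the motifs were chosen with earlier results of these data known. The named genes are the 9, up to 8 other pathway genes with the largest called difference between suckling and Days 25 to 60, and the 2 genes most correlated with each of the 9. Gene positions come from the GENCODE annotation of NCBI37 and promoter sequences from RefSeq on GRCm38.p6. Figures were drawn with matplotlib 3.10.9. Alternatives were a pseudocount of 0.1, no filter, a filter at 5 FPKM, upper-quartile and TPM scaling, no variance trend, a replicate block, Dunnett's comparison, each mouse left out and, added after seeing the data, the 7 libraries with genes of other tissues left out.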

Additional observations from a re-analysis of the deposited data

How the results depend on the processing

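The counts of called results varied little. All 9 genes differed from Day 60 at some age under every alternative, 8 were higher in the suckling period than before it and 8 (9 with upper-quartile scaling) lower than after weaning. The called steps, 20 in all, ranged from 17 to 22 when 1 mouse was left out. Fewer were called when the 7 libraries were left out, which left a single Day 0 mouse. The called other pathway genes, 32 in all, ranged from 29 to 33 when 1 mouse was left out. With a replicate block, 9 genes differed from Day 60, 22 steps and 32 other pathway genes were called, and 8 genes were called against each of the other periods; it ended no call. The numbers were not taken as pairs, since the mice are separate animals and the labels tie none of them together. Mice with the same number at different ages had a median correlation of deviations of 0.126 (lowest -0.68, 104 of 198 over 0.1), against -0.0476 for different numbers.

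Of 109 single-gene results under 44 settings, 4721 values kept direction and side of the threshold, 67 lost a call, 4 gained one and 4 turned. Many of these values kept their estimate by design, since most mice left out belong to ages outside the comparison. The count of 4721 is therefore not a measure of robustness. The turns were Fah between suckling and after weaning with upper-quartile scaling (-0.31), and Acmsd between suckling and before it without Day -2 replicate 2 (-0.03), without Day 0 replicate 3 (-0.035) and without the 7 libraries (-0.082). Leaving out 1 mouse gave Acmsd values from -0.035 to 0.103 there. The cause of these turns was not tested. Calls lost by other settings were Kynu below Day 60 on Day 15 (no filter, TPM scaling) and Day 20 (TPM scaling), Tdo2 below Day 60 on Day 25 (no filter, TPM scaling, pseudocount of 0.1), the rise of Haao from Day 1 to Day 3 (no filter, TPM and upper-quartile scaling) and the rise of Hpd from Day 5 to Day 10 (no filter). Dunnett's comparison also lost Kynu on Day 15 and Fah on Day 10. Leaving out the 7 libraries also ended the calls, against Day 60, of Fah on Day 10 (0.36, adjusted p = 0.101) and Day 15 (0.47, 0.0867), Kynu on Day 15 (-0.63, 0.141) and Day 20 (-0.76, 0.105) and Tdo2 on Day 25 (-0.86, 0.0888). It ended, from Day 10 to Day 15, those of Hpd (0.63, 0.0773), Hgd (0.56, 0.0608) and Acmsd (1.27, 0.0612), and that of Acmsd from Day 20 to Day 25 (1.34, 0.0687). The changes of Acmsd, Haao and Kynu around birth given above were also not called in that fit, which held a single Day 0 mouse. Values under 1 FPKM, as for Tdo2 and Tat at GD17.5, depend on the pseudocount: the difference of Tdo2 between suckling and the ages before it was 3.58, and 5.53 with 0.1.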
